A study of Mus musculus with 6 samples.

Results

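The genes described here are Lyn, Cd72, Tln1, Abca1 and Bach2, immune and adhesion genes that the annotation places on chromosome 4 below 54 Mb. They were chosen by symbol and position, and all 5 were found among the 54590 gene IDs of the count table. The region holds 296 protein-coding genes. Total RNA was sequenced from hippocampal microglia, which are the brain's own macrophages, taken 3 weeks after the mice were born. All mice carried the Tmem119-tdTomato+/- reporter, a red fluorescent protein tied to a microglial gene. The control group (Ctrl) and the growth-restricted group (FGR, for restriction in the womb) had 3 libraries each, and a library was made from 3000 microglia. The sources used here do not give the method of growth restriction, the sex of the mice or whether the libraries came from separate animals. The p-values therefore describe the spread among libraries, and that spread may be technical. The group name FGR is unrelated to the Src-family gene Fgr.

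Microglia read their surroundings through receptors whose cytoplasmic tails carry activating or inhibitory tyrosine motifs. Lyn, a Src-family kinase of myeloid and B cells, phosphorylates both kinds of motif. Cd72 is a lectin-like receptor with an inhibitory motif that recruits the phosphatase Ptpn6, and its ligand is the semaphorin Sema4d. Tln1 encodes talin-1, which binds the tails of integrins, switches them to their adhesive state and ties them to actin. Abca1 is a membrane transporter that loads cholesterol and phospholipid onto apolipoproteins and is a textbook target of the liver X receptors (LXR). Bach2 is a transcriptional repressor that pairs with small MAF proteins and is best known from B and T cells.

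Total counts ran from 1553588 to 11364316 per library. In either group, libraries 1 and 2 differed far less than the other pairs of libraries, but by more than counting noise. Over well-counted features, the chi-square of the counts per feature was 2.63 for Ctrl and 2.77 for FGR. The other pairs of libraries had 20.4 to 51.7, and counting noise alone gives about 1. Libraries 1 and 2, called near copies here, were counted as 1 sample, so every mean ± SD of a group has n = 2. Levels are in CPM scaled with edgeR's TMM factors (TMM-scaled CPM), and levels of different genes are compared only per kb of annotated exon. In bulk libraries, fewer cells of a type and less RNA per cell cannot be told apart.

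Labels of this table were first compared with the known use of the genes they name. The positions given are those of GRCm38 (mm10), the build named by the submitters; a second mouse build was not used here, so it was not tested whether any of the genes lies elsewhere in one. Along chromosome 4, 41 of the 296 protein-coding genes below 54 Mb (13.9%) had at least 1000 counts per kb of exon over all libraries. So did 11 of 91 genes from 54 to 65 Mb (12.1%) and 46 of 940 above 65 Mb (4.89%), so the share did not drop at 54 Mb. From 65 to 90 Mb, 0 of 89 genes reached that level. The nearest genes inside and outside the 54 Mb limit were Tmem38b with 184 counts per kb and Zfp462 with 26.2. Farther along the chromosome, the labels of the complement genes C1qa, C1qb and C1qc, which microglia make in large amounts, had 3, 14 and 13 counts in all.

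Within the region, lists of labels grouped by use differed in level. The lists were chosen with earlier results of these data known, so the difference is a description and not a check of the labels. Of 30 labels of genes that most cells use, 29 had at least 100 counts per kb. Of 31 labels of genes of neurons or other tissues, 1 did, which was Col15a1, a basement membrane collagen. The median level was 17.4 TMM-scaled CPM per kb in the list of widely used genes and 0.63 in the list of neurons and other tissues. The highest widely used label was the clathrin light chain Clta, at 442 ± 83.0 (SD, n = 4), followed by the co-chaperone Bag1 at 108 ± 26.2. The highest immune-related label was the TGF-beta receptor Tgfbr1, at 812 ± 51.7, followed by the galactosyltransferase B4galt1 at 207 ± 42.5 and the syntenin gene Sdcbp at 137 ± 29.0. Tgfbr1 is the only one of the 28 fixed microglial markers in the region. Of those 28 labels genome-wide, 13 had at most 100 counts over all libraries, so the labelled cell type could not be checked from them.

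**Figure D1:**
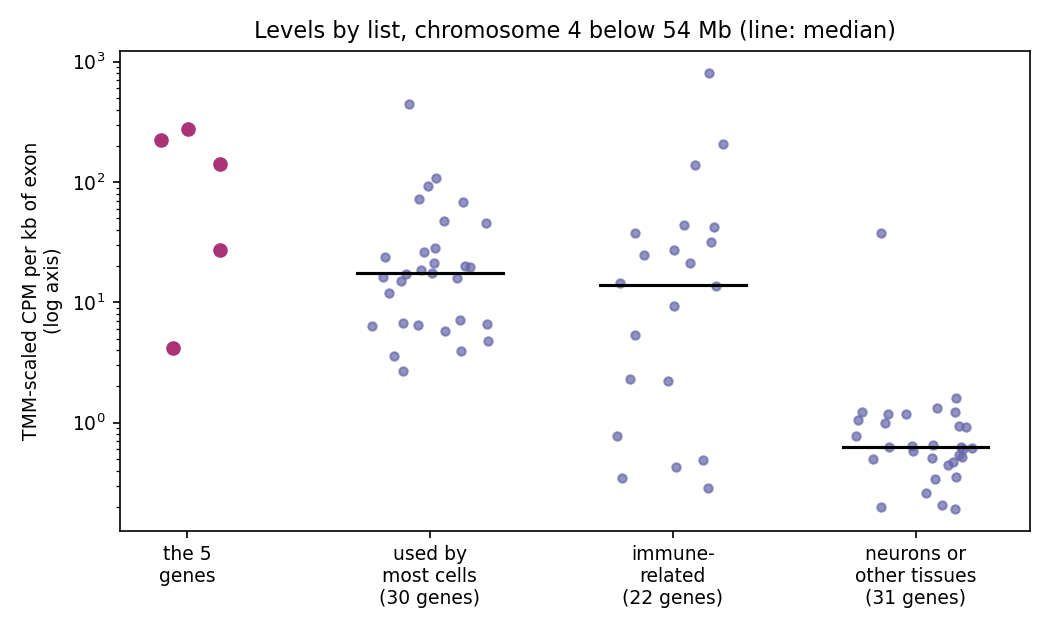
Mean level over 4 samples in TMM-scaled CPM per kb of exon (log axis) for the 5 genes and for the 3 lists of labels on chromosome 4 below 54 Mb; each point is a gene and the line is the median of the list (1 immune-related label at 0 is not drawn). Apart from Col15a1, the neuron and other-tissue labels lie below all 5 genes.

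Lyn, Abca1 and Tln1 were among the most abundant labels of the region. Their levels were 277 ± 30.1, 222 ± 23.2 and 142 ± 22.9 TMM-scaled CPM per kb (SD, n = 4), at ranks 6, 7 and 10 of the 296 genes. Among all 21967 protein-coding labels they stood at ranks 41, 50 and 92. Bach2 stood at 27.2 ± 2.78, rank 47, and Cd72 at 4.19 ± 0.785, rank 142, close to the region's median of 3.58. The 5 genes held 15.9% of the counts of the region's protein-coding genes.

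The order Lyn, Abca1, Tln1, Bach2, Cd72 was the same in 6 of 6 libraries. Lyn was 1.18 to 1.33 times as high as Abca1 per kb within each library, although their ranges over libraries overlapped. Abca1 was 1.43 to 1.79 times as high as Tln1, with no overlap of ranges. Tln1 exceeded Bach2 by 4.43 to 5.72 times, and Bach2 exceeded Cd72 by 5.57 to 8.84 times. The order rests on exon length: with the whole gene span as length, it was Tln1, Abca1, Lyn, Cd72, Bach2. Reads over exon junctions may also be lost, and the exons form 59 blocks in Tln1, 50 in Abca1, 14 in Lyn, 9 in Bach2 and 7 in Cd72. Of the exonic bases of Cd72, 41.6% are shared with Tesk1 on the opposite strand. The bearing of either on the order was not tested. Each gene's nearest neighbours in the region's order overlapped it in range. These were Gem, a small GTPase, above Lyn at 297 ± 131; Akirin2 above Tln1 at 154 ± 19.9 and Sdcbp below it; B4galt1 below Abca1; Casp8ap2 above Bach2 at 27.8 ± 3.72 and Nfx1 below it at 27.1 ± 3.52; and Ubxn2b above Cd72 at 4.40 ± 0.367 and Pdp1 below it at 4.05 ± 0.473.

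**Figure D2:**
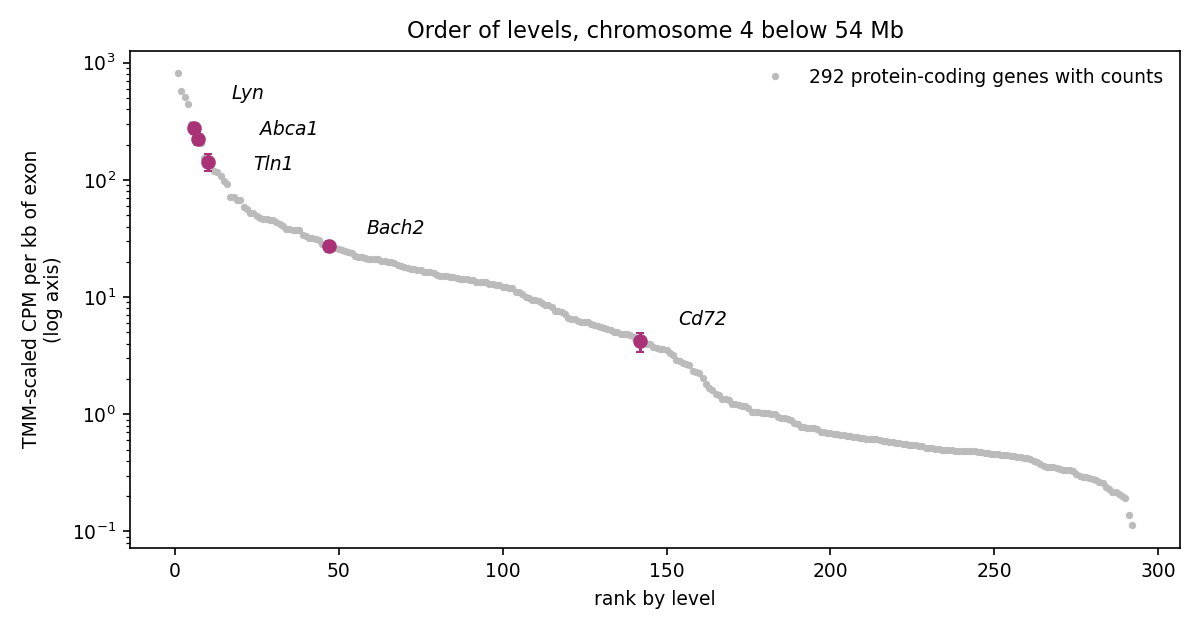
Mean level (TMM-scaled CPM per kb of exon, log axis) of the protein-coding genes on chromosome 4 below 54 Mb that had counts, ordered by rank; the 5 named genes carry the SD over 4 samples. Lyn, Abca1 and Tln1 stand at ranks 6, 7 and 10, Bach2 at 47 and Cd72 at 142.

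Lyn (ENSMUSG00000042228) lies on the plus strand at chr4:3678115-3813122, with 4073 exonic bases, of which 6.09% are shared with the antisense gene Gm26857. Its level in Ctrl libraries 1, 2 and 3 was 982, 985 and 1163 TMM-scaled CPM, and in FGR libraries 1, 2 and 3 it was 1320, 1231 and 1094. The FGR near copies lay above all Ctrl libraries, while FGR library 3 lay below Ctrl library 3. The chi-square between the near copies was 0.114 in Ctrl and 8.15 in FGR, where the typical value was 2.77. The means were 1185 ± 129 in FGR and 1073 ± 127 in Ctrl (SD, n = 2).

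Cd72 (ENSMUSG00000028459) lies on the minus strand at chr4:43446462-43454628. Of its 3422 exonic bases, 41.6% are also exonic in Tesk1 on the opposite strand. The Tesk1 label had 2371 counts in all and Cd72 had 454, and since the strand setting of the counting is not given, reads of these shared bases cannot be told apart. The level of Cd72 in Ctrl libraries 1, 2 and 3 was 11.6, 9.66 and 15.3 TMM-scaled CPM, and in FGR libraries 1, 2 and 3 it was 12.9, 16.1 and 17.0. Ctrl library 2 had only 15 reads of Cd72, so the exact Poisson 95% interval of its level ran from 5.41 to 15.9. The intervals of Ctrl library 3 (12.95 to 17.9) and FGR library 3 (14.6 to 19.6) overlapped. These intervals cover counting error only. The groups overlapped, with FGR library 1 below Ctrl library 3.

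The sequence upstream of a start of Cd72 is shown because PU.1 is a leading transcription factor of macrophages and B cells, in which Cd72 is used. It is the stretch of the RefSeq promoter entry (build GRCm38.p6, minus strand, chr4:43454629-43454876) that holds no annotated exon, 5′ to 3′, with the match to GAGGAA, the core of PU.1-type sites, in capitals.
Cd72: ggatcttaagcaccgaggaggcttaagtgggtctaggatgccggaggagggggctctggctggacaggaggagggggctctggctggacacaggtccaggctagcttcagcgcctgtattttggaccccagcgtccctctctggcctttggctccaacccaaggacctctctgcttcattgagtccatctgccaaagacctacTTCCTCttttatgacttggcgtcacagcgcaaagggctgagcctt
The match is on the opposite strand and begins 47 bases before the start that this RefSeq entry uses. That start lies 2 bases inside the gene as GENCODE annotates it, beyond the end of the stretch shown. The RefSeq span of Cd72 reaches chr4:43455102. The whole stretch therefore lies inside that span and is upstream of the entry's start, not of the whole RefSeq gene. GAGGAA on either strand was found in 23.3% of the 32851 RefSeq promoter entries over the 250 bases before the start, of which 248 are shown for Cd72, so such a match is common.

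Tln1 (ENSMUSG00000028465) lies on the minus strand at chr4:43531519-43562691, close to Cd72, with 9801 exonic bases in 59 blocks; 3.67% are shared with Creb3 on the opposite strand. Its level in Ctrl libraries 1, 2 and 3 was 1088, 1084 and 1375 TMM-scaled CPM, and in FGR libraries 1, 2 and 3 it was 1566, 1577 and 1549. The groups did not overlap, with each FGR library above each Ctrl library. The FGR values spanned a narrow range, with a mean of 1560 ± 15.7, while Ctrl library 3 stood well above the Ctrl near copies, with a mean of 1230 ± 204.

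Abca1 (ENSMUSG00000015243) lies on the minus strand at chr4:53030787-53159895, with 10363 exonic bases that no other annotated exon shares. It had the most counts of the 5 genes, 70146 in all, at rank 15 of all labels. Its level in Ctrl libraries 1, 2 and 3 was 1878, 2054 and 2352 TMM-scaled CPM, and in FGR libraries 1, 2 and 3 it was 2604, 2474 and 2350. The FGR near copies lay above all Ctrl libraries, and library 3 was nearly equal in FGR and Ctrl. The chi-square between its near copies was 11.6 in Ctrl and 9.58 in FGR, above the typical 2.63 and 2.77. In FGR, its near copies held more counts than the features behind the typical value.

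The sequence upstream of Abca1 is shown because its promoter is known for an LXR element. It is the RefSeq entry before the annotated start (build GRCm38.p6, minus strand, chr4:53159896-53160145), 5′ to 3′, with capitals for matches to CACGTG, the E-box, and to TGACC and TAACC with 5 bases between them, an LXR-type repeat whose letters were written down with this promoter in view.
Abca1: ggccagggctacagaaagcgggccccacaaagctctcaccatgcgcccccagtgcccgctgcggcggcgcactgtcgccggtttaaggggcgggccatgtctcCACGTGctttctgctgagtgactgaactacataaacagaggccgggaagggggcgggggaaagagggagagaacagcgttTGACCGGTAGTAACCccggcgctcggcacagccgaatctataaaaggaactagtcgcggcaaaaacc
The E-box begins 147 bases and the LXR-type repeat 67 bases before the annotated start, and the matches do not overlap. The RefSeq span of Abca1 reaches chr4:53159988, so the repeat lies inside that span and the E-box beyond it. On either strand, CACGTG was found in 6.02% and the repeat in 0.0457% of the 32851 promoter entries. Neither was found in the stretch shown for Cd72, nor was GAGGAA in that of Abca1. A match describes letters and not binding.

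Bach2 (ENSMUSG00000040270) lies on the plus strand at chr4:32238804-32586108, with 9940 exonic bases, of which 5.40% are shared with the antisense gene Bach2os. Its level in Ctrl libraries 1, 2 and 3 was 235, 248 and 258 TMM-scaled CPM, and in FGR libraries 1, 2 and 3 it was 291, 322 and 275. Here too FGR and Ctrl did not overlap, with FGR library 3 closest to Ctrl library 3. The means were 291 ± 22.2 in FGR and 250 ± 11.2 in Ctrl. Pax5, the B-cell factor encoded in the same region, stood at 0.49 ± 0.249 TMM-scaled CPM per kb (SD, n = 4) against 27.2 for Bach2, and 9 of 15 fixed B-cell labels had at most 100 counts over all libraries. The summed level of that list, in which the Blk label held 17144 counts, was 571 to 597 TMM-scaled CPM in Ctrl libraries and 541 to 877 in FGR libraries; its part in the values of Bach2, Lyn and Cd72 was not tested.

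**Figure D3:**
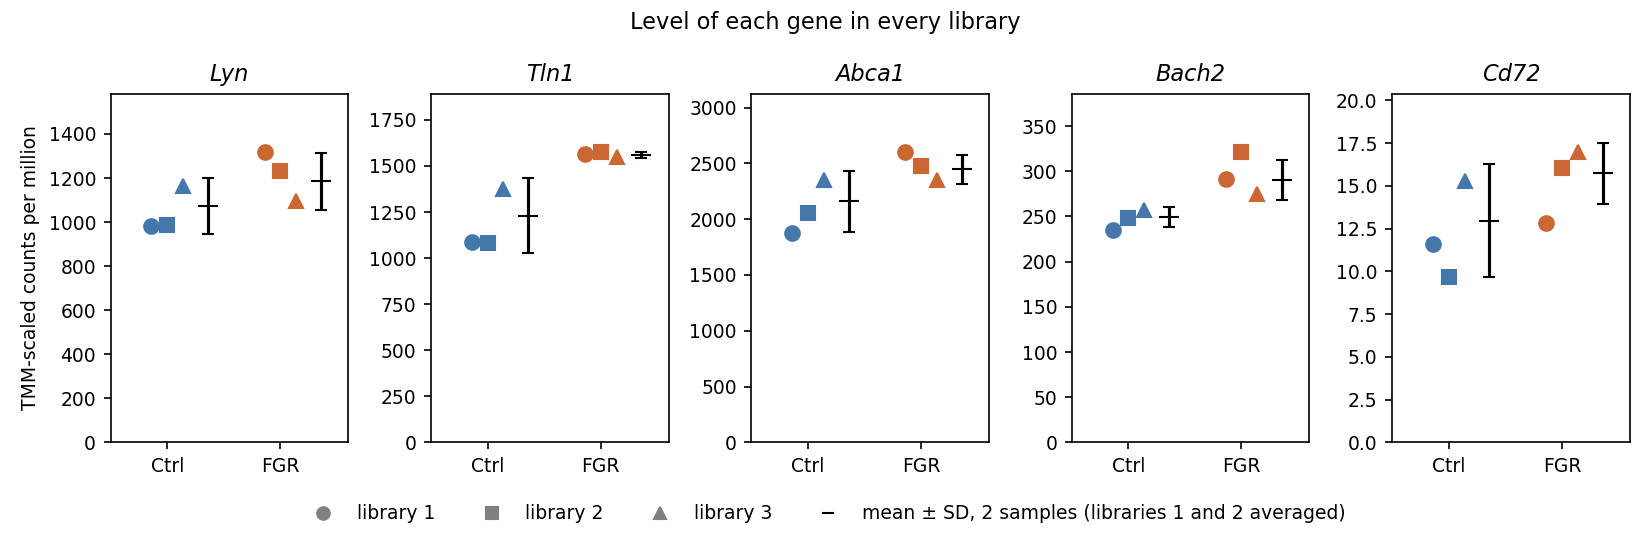
TMM-scaled CPM of each gene (linear axes from 0, a scale for each gene) in the 3 Ctrl and 3 FGR libraries; symbols mark the library number and bars the mean ± SD of 2 samples a group, with libraries 1 and 2 averaged. FGR and Ctrl libraries do not overlap for Tln1 and Bach2 and overlap for Lyn, Abca1 and Cd72.

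In the comparison of FGR with Ctrl, which asks how growth restriction before birth bears on microglial RNA, 0 of the 5 genes passed the test. The edgeR quasi-likelihood test on summed near copies called 0 of 24149 features (0%) at a Benjamini-Hochberg adjusted p of 0.05, with 327 features at an unadjusted p under 0.05 against 1207 that chance gives. DESeq2 and limma-voom also called 0, with 211 and 196 at an unadjusted p under 0.05. These fits hold the group only. With the replicate number as a block on the same summed samples, 1049 features had an unadjusted edgeR p under 0.05. The common coefficient of variation was 0.38 without the block and 0.26 with it. A count below that of chance does not show that no feature differs. The log2 fold change, FGR over Ctrl, was 0.17 (SE 0.28, 95% interval -0.43 to 0.78) for Lyn and 0.24 (SE 0.39, -0.58 to 1.07) for Cd72. It was 0.36 (SE 0.29, -0.25 to 0.98) for Tln1, 0.22 (SE 0.28, -0.39 to 0.82) for Abca1 and 0.24 (SE 0.28, -0.36 to 0.84) for Bach2. The edgeR adjusted p of each was 0.99979. The intervals hold no difference as well as changes of over 1.5 times, so these libraries do not settle whether the genes differ.

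All 5 fold changes were above 1, where 47.6% of all tested features and 67.9% of the 240 tested protein-coding genes of the region were. The median log2 fold change was 0.24 for the 5 genes, 0.14 for the region's protein-coding genes and -0.03 for all features. For 2 of the 5 genes, Tln1 and Bach2, every FGR library exceeded every Ctrl library; 3.94% of all features and 7.92% of the region's genes did so, and 6.16% of all features had every FGR library below. Counts were also scaled to the summed counts of the region. That sum includes the 5 genes themselves, so the scaling takes out part of any change they share. It shifted the median of all features to -0.14, and the log2 fold changes were 0.03 for Lyn, 0.13 for Cd72, 0.23 for Tln1, 0.08 for Abca1 and 0.10 for Bach2. The region took 3.57%, 3.56% and 3.43% of the counts in Ctrl libraries 1, 2 and 3 and 3.93%, 3.85% and 3.37% in FGR libraries 1, 2 and 3, so it was higher in FGR in the near copies and lower in library 3.

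The differences came mostly from libraries 1 and 2. Within them the log2 ratio of FGR over Ctrl was 0.38 for Lyn, 0.44 for Cd72, 0.53 for Tln1, 0.37 for Abca1 and 0.34 for Bach2. Within library 3, the deepest of each group, it was -0.09 for Lyn, 0.15 for Cd72, 0.17 for Tln1, -0.00086 for Abca1 and 0.09 for Bach2. No label names a batch, so these are 1 value a group with no test. Without Ctrl library 3, which leaves the Ctrl near copies as 1 sample assumed to vary like FGR, the log2 fold changes rose to 0.45 for Lyn, 0.69 for Cd72, 0.69 for Tln1, 0.51 for Abca1 and 0.43 for Bach2, with edgeR adjusted p from 0.48 to 0.56. Without FGR library 3, Cd72 moved to 0.04 and Lyn to 0.27, and without FGR library 1, Lyn moved to 0.12.

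The replicate number as a block called 0 of the 5 genes. On summed samples the blocked log2 fold changes were 0.18 for Lyn, 0.25 for Cd72, 0.39 for Tln1, 0.23 for Abca1 and 0.24 for Bach2, with an edgeR adjusted p of 0.998217 each. That fit called 1 of 24149 features (0.00414%), labelled Gm36947 and lower in FGR, and the blocked fit on 6 separate libraries called 1 of 16075 (0.00622%), labelled Nprl3 and higher in FGR; both are named after their values were seen. With the 6 libraries separate and no block, Tln1 had a log2 fold change of 0.40 (SE 0.15) and an unadjusted p of 0.0165, with an edgeR adjusted p of 0.996491. In the blocked fit on 6 libraries, Tln1 had 0.41 (SE 0.12, 95% interval 0.16 to 0.66) with an edgeR adjusted p of 0.362, and Abca1 had 0.25 (SE 0.12, 0.0026 to 0.49) with an adjusted p of 0.587; the intervals of Lyn, Bach2 and Cd72 held 0. Both fits on 6 libraries count near copies as separate samples.

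**Figure D4:**
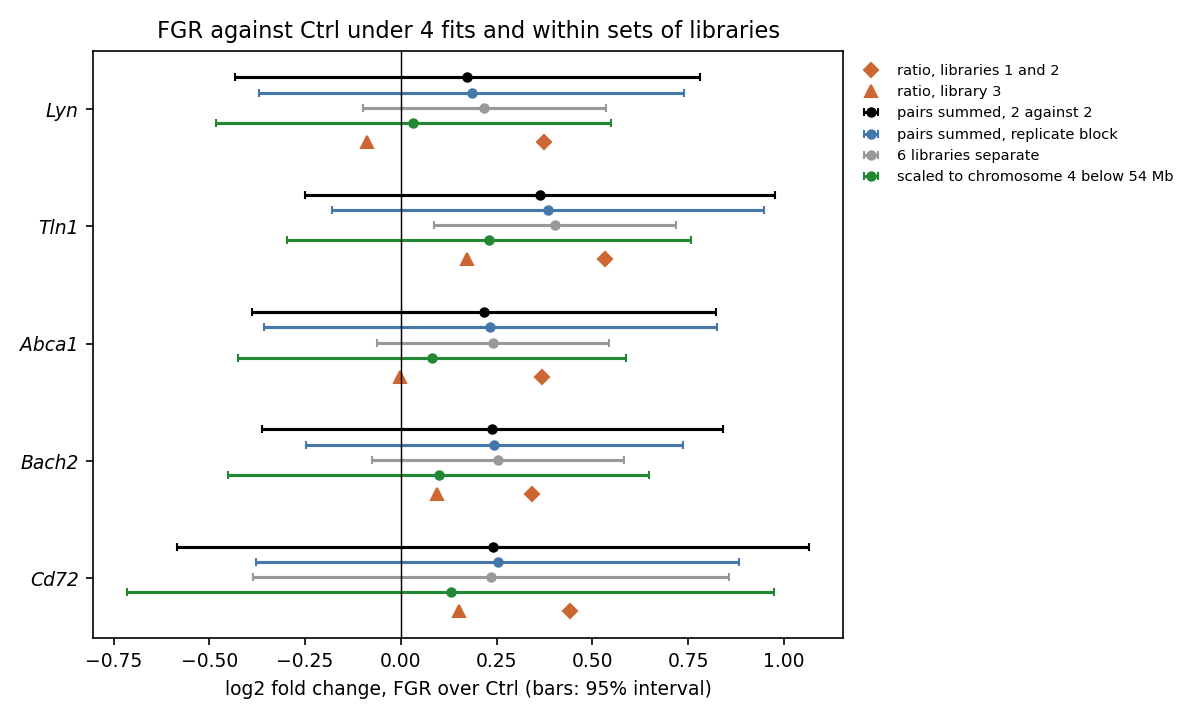
Log2 fold change of FGR over Ctrl with its 95% interval for each gene in 4 fits, and below them the log2 ratio within libraries 1 and 2 (diamonds) and within library 3 (triangles), which have no interval. The intervals of the fit on summed pairs hold 0 for all 5 genes, and each diamond lies to the right of its triangle.

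Across libraries, the 5 genes varied together to differing degrees. The Pearson correlation of log2(CPM + 1) over the 6 libraries was 0.94 between Lyn and Abca1, 0.93 between Tln1 and Abca1 and 0.87 between Lyn and Tln1, and the lowest was 0.54 between Lyn and Cd72. These describe 6 libraries that hold 4 samples and share their scaling. Among 142 other named protein-coding genes of the region with a mean of at least 10 CPM, those most like Lyn were the chromatin remodeller Chd7 (r = 0.98), Nfx1 (0.96) and Bag1 (0.94). Most like Tln1 were Nol6 (0.97), Bag1 (0.97) and Col15a1 (0.96), and most like Abca1 were Galnt12 (0.96), Bag1 (0.95) and Fbxo10 (0.94). Bach2 was followed most closely by Trp53inp1 (0.99), Mdn1 (0.95) and Dnajb5 (0.89), and Cd72 by Ubxn2b (0.96), Fam219a (0.95) and Aptx (0.91). With so few samples r is imprecise. It reached 0.9 for 9, 11, 16, 2 and 3 of the 142 candidates with Lyn, Tln1, Abca1, Bach2 and Cd72.

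Lists of genes that work with the 5 were counted as labels only. Most of their members lie on other chromosomes, and no position, on chromosome 4 or elsewhere, was compared with a second build. Of 38 labels of Src-family kinases and tyrosine-motif signalling, 35 were tested, 24 had a fold change above 1 and 0 passed in either direction, with a median log2 fold change of 0.07. Of 39 integrin adhesion labels, 37 were tested, 23 were above 1 and 0 passed, with a median of 0.11. Of 30 cholesterol efflux and LXR target labels, 26 were tested, 14 were above 1 and 0 passed, with a median of 0.09. Of 28 labels of BACH repressors, MAF partners and their targets, 22 were tested, 11 were above 1 and 0 passed, with a median of -0.04. At most 100 counts over all libraries were found for 11, 11, 9 and 11 labels of these 4 lists. Related labels could differ widely, as in these pairs chosen after their values were seen: of the activating adaptors, Tyrobp had 3 counts and Fcer1g had 2087, and of the integrin subunits, Itgam had 27 and Itgax had 5465.

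In the region itself, 21 of 30 tested labels of widely used genes had a fold change above 1 and 0 passed, with a median log2 fold change of 0.14. Of the 22 immune-related labels found, 18 were tested, 14 were above 1 and 0 passed, with a median of 0.22. Of the 31 labels of neurons or other tissues, 24 were tested, 8 were above 1 and 0 passed, with a median of -0.25. These lists differ in depth: the median was 17.8 counts per kb in this list, 524 for widely used and 429 for immune-related labels. At most 100 counts over all libraries were found for 22 of the 31 labels. Whether the medians of fold change follow the level of counts was not tested. In 9 lists of markers of microglia and other cell types, 0 labels passed. The summed level of the microglial list was 6128 to 6184 TMM-scaled CPM in Ctrl libraries and 5665 to 6478 in FGR libraries. Tgfbr1 alone held 5285 to 5405 of it in Ctrl and 4850 to 5727 in FGR. The neuronal list summed to 1291 to 1433 in Ctrl and 1287 to 1448 in FGR. Of that sum, Gad2 held 650 to 726 in Ctrl and 479 to 853 in FGR. Slc17a7 held 372 to 525 and 423 to 713. At most 100 counts over all libraries were found for 7 of the 15 neuronal labels.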

How the data were processed

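The authors deposited whole-number counts of reads per Ensembl gene ID, not normalized. The build mm10 and, in no given role, HTSeq 2.0.3, Bowtie2 2.4.5, Trim Galore 0.6.5, DESeq2 1.32.0 and SAMtools 1.3.1 are named per the submitters' processing notes; the sources used here do not give the annotation or the strand setting. Libraries came from a stranded total RNA kit, per the labels' protocols. Bowtie2 is not a spliced aligner, so reads over exon junctions may be lost. Symbols, positions and exon lengths are from GENCODE M21 (GRCm38), in which 53706 of the 54590 IDs were found; unmatched IDs held 0.0459% of the counts. The planned check of positions in a second build was not run. Levels of fixed lists were read instead, which cannot show whether a position is alike in another build.

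Near copies were summed and FGR was tested against Ctrl over all features with edgeR 4.0.16 in R 4.3.3 (TMM, filterByExpr, robust quasi-likelihood fit, legacy off), tested on simulated data; each SE was derived from the fold change and its F statistic. limma 3.58.1, DESeq2 1.42.0, Python 3.11.15, numpy 2.4.6, pandas 2.3.3 and matplotlib 3.10.9 were also used. Replicate numbers recur in both groups: deviations from the group mean correlated at 0.21, 0.17 and 0.48 for numbers 1, 2 and 3. Libraries 1 and 2 also correlated across numbers (0.20 and 0.21). These values set libraries 1 and 2 apart from library 3 but do not pair number 1 with 1 or 2 with 2. No label gives a pairing, and the replicate block entered alternative fits only. The genes and lists were chosen with earlier results of these data known. Named genes were the 5 genes, the highest region labels of each list, the level neighbours and the 3 region genes of most like pattern. Alternatives covered scaling, filters, tests, the block and each library left out.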

Additional observations from a re-analysis of the deposited data

How the results depend on the processing

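None of the 5 fold changes passed the test under any other scaling, filter, test or block, or without any 1 library, and each kept its sign there. Within library 3 alone, added after seeing the data, Lyn had -0.088 and Abca1 -0.00086, the reverse of the fit on all libraries; the cause was not tested. The count of called features was 0 under all of these except both replicate block fits, with 1 each; on chromosome 4 below 54 Mb it was 0 throughout. Leaving out 1 library gave log2 fold changes of 0.12 to 0.45 for Lyn, 0.35 to 0.69 for Tln1, 0.17 to 0.51 for Abca1, 0.20 to 0.43 for Bach2 and 0.04 to 0.69 for Cd72. Percentiles of level among the region's protein-coding genes moved beyond the SD over samples under these settings. With the gene span as length they were 89.9 for Lyn, 98.3 for Tln1, 95.3 for Abca1, 54.4 for Bach2 and 66.9 for Cd72, as introns enter the length, which puts Tln1 first and Bach2 last. With the longest transcript as length they were 95.9 for Tln1, 97.3 for Abca1 and 82.8 for Bach2. With all protein-coding labels as background they were 99.8 for Lyn, 99.6 for Tln1, 99.8 for Abca1, 94.6 for Bach2 and 73.7 for Cd72. Library 3 alone gave 98.3 for Lyn and 98.0 for Abca1, and libraries 1 and 2 alone 95.9 for Tln1. Backgrounds limited to genes alike in 2 builds, and other overlaps between builds, were not run. Depth limits Cd72 most, with 15 to 184 reads a library.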
